A study of Homo sapiens with 4 samples.

Results

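NRF2 (gene NFE2L2), its partners KEAP1 and MAFG, and 7 genes of its detoxification program were examined after knockdown of ACTL6A in SNU638 cells, a human gastric cancer line long kept in culture. The 10 genes were chosen by name, with earlier results of these arrays known. Every probe set of the array that carries exactly 1 of the 10 gene symbols was taken, which gave 19 probe sets of the 54613 that are not array controls, and 10 genes of the 19775 that are named. A probe set is a group of short oligonucleotides read out as 1 value. Because the choice drew on these arrays, the differences of the members between the groups are a description and support no claim of their own.

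RNA was hybridised to 4 Affymetrix arrays, 2 from cells that received a scramble RNA and 2 from cells that received sh-ACTL6A. ACTL6A is an actin-related subunit of chromatin-remodelling complexes, and the study asked which transcripts depend on it in gastric cancer. The hairpins against ACTL6A were carried by the pLKO.1 vector in lentivirus, and infected cells were selected with puromycin for several days. All 4 arrays therefore come from 1 line, with no untreated array among them. Nothing in the labels says that a group's arrays are independent cultures, or that the sh-ACTL6A pair share a hairpin. The p-values thus reflect array-to-array spread alone, and that spread may be technical.

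NRF2 is the transcription factor that switches on genes for the disposal of oxidants and electrophiles. In resting cells KEAP1 binds NRF2 and hands it to a CUL3 ubiquitin ligase for degradation. Oxidants and electrophiles modify KEAP1, NRF2 then accumulates, pairs with a small MAF protein such as MAFG, and binds antioxidant response elements in its target genes. Some epithelial tumours keep the program on. Its targets include quinone and carbonyl reductases, haem oxygenase, and enzymes that supply sugar conjugates and glutathione.

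The antioxidant response element is a DNA sequence with the core letters TGACNNNGC. Those letters and the related TGAGNNNGC were searched on both strands of the RefSeq promoter windows (GRCh38.p14), which reach from 250 bases before to 50 bases after a gene's start. Of 35116 such windows, 13.3% held TGACNNNGC, 18.3% held TGAGNNNGC and 29.1% held either. The table held 11 windows for 8 of the 10 genes, all but HMOX1 and AKR1B10, and 6 of these windows, from 6 genes, held a match. KEAP1 alone among them held TGACNNNGC, with 2 matches, while all 6 held TGAGNNNGC. The matches of KEAP1, NFE2L2, NQO1, AKR1C1 and OSGIN1 are printed with 10 bases on each side, the core in capitals, so that the letters around each can be read. The UGDH match, at the edge of its window, is given after them. Each is given 5′ to 3′ on the strand that carries the match.

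KEAP1, chr19:10502807-10502835, minus strand: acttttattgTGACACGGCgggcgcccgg
KEAP1, chr19:10502784-10502812, plus strand: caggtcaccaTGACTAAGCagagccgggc
KEAP1, chr19:10502956-10502984, plus strand: cacgcgacccTGAGCGCGCttagccgcgt
NFE2L2, chr2:177264259-177264287, minus strand: gtctggggacTGAGCCCGCtcgcgtgggc
NFE2L2, chr2:177264129-177264157, minus strand: gctggccgtcTGAGCCGGCgcggcccggc
NQO1, chr16:69726661-69726689, plus strand: cggaggatgcTGAGGCTGCagctccagga
AKR1C1, chr10:4963364-4963392, minus strand: ataagagcaaTGAGCTGGCaacgcccctg
OSGIN1, chr16:83953131-83953159, minus strand: ttcataagcgTGAGTCAGCaggggcccgt

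The UGDH window held TGAGCTGGC at its first base, 250 bases before the start. The OSGIN1 match began 99 bases before the start and was the only one to overlap the letters TGACTCA or TGAGTCA, which AP-1 factors bind. The whole OSGIN1 window (chr16:83952990-83953289, plus strand) is shown because its match contains both sets of letters, in capitals as read from the other strand.

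OSGIN1 promoter: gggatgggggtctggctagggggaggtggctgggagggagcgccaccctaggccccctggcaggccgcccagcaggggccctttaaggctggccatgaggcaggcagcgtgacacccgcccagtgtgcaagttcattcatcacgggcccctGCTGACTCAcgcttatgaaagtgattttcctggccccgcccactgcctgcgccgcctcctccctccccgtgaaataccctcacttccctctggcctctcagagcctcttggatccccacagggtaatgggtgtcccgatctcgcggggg

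These matches are letters in a window and were not tested for binding. Sequence outside the windows was not searched, so a gene without TGACNNNGC here may hold it elsewhere.

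ACTL6A itself was read first as a check of the labels. Its single probe set gave log2 signals of 11.92 and 11.82 on scramble and of 10.16 and 10.32 on sh-ACTL6A. Both sh-ACTL6A arrays lay far below both scramble arrays, and the difference of -1.63 ± 0.14 (SE, n = 2 per group, 95% confidence interval -1.95 to -1.31) is a change of -67.7%. With limma and Benjamini-Hochberg adjustment over all 27307 probe sets above the signal threshold, a mean log2 signal of 5.63, its adjusted p was 0.113. With 1 probe set kept for each gene it was 0.0408.

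No probe set passed an adjusted p under 0.05 by limma among the 27307 tested (0%). At an unadjusted p under 0.05, limma had 710 probe sets higher and 534 lower, and the methods' t-test 802 and 587, with 0 left after adjustment. An exact permutation test of 2 arrays against 2 cannot go below p = 0.333. Of 6 epithelial markers, 5 (EPCAM, CDH1, KRT8, KRT18 and KRT19) were at or above the threshold on every array and CLDN4 was below it. KRT18 was lower on both sh-ACTL6A arrays, with a difference of -0.34 ± 0.09 (limma adjusted p = 0.835). The groups overlapped at the other 4 tested. Of 6 gastrointestinal markers, 1 or 2 reached the threshold on an array, and MUC5AC did so on all. At most 1 of 4 leukocyte markers and 3 or 4 of 6 fibroblast and endothelial markers did so, the latter COL1A1, DCN and PECAM1 on every array. Signals come from bulk RNA, in which fewer cells with a transcript and less of it per cell cannot be told apart.

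Most of the members gave signal above the threshold in these cells. Of the 19 member probe sets, 14 reached the threshold, and they covered 8 of the 10 genes. The threshold is the 50th percentile, which 27307 of all 54613 probe sets reached. The 5 that did not were all for aldo-keto reductases. AKR1B10 and AKR1C3 had no probe set at the threshold. At a threshold set at the 75th percentile, which 13654 of all 54613 probe sets reached, 8 of the 19 were left. They were for NFE2L2, KEAP1, MAFG, NQO1, HMOX1 and UGDH.

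**Figure D1:**
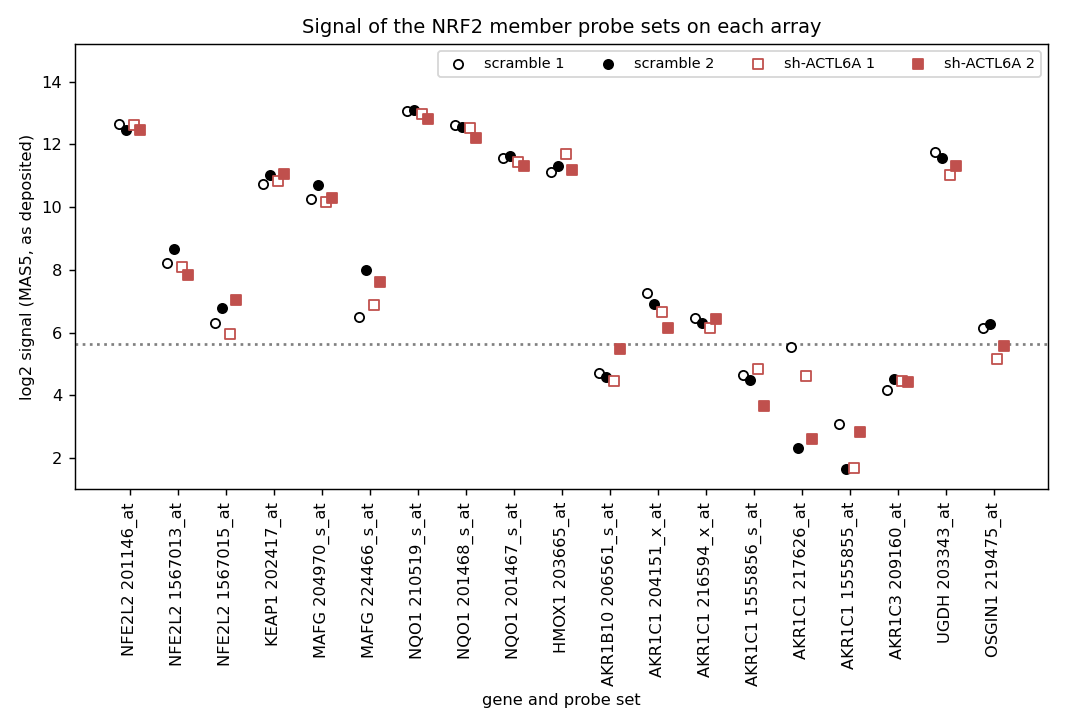
Log2 signal (vertical axis, MAS5 as deposited) of each of the 19 member probe sets (horizontal axis) on the 2 scramble arrays (circles) and the 2 sh-ACTL6A arrays (squares). The dotted line is the signal threshold of 5.63, below which the 5 dim aldo-keto reductase probe sets lie. Heights of different probe sets are not comparable with each other.

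NRF2 transcript was near level at its brightest probe set and lower at another. Probe set 201146_at of NFE2L2 read 12.66 and 12.47 on scramble and 12.60 and 12.45 on sh-ACTL6A. The groups overlapped, and the difference was -0.04 ± 0.12 (SE, 95% confidence interval -0.32 to 0.24). Probe set 1567013_at read 8.21 and 8.66 on scramble and 8.10 and 7.85 on sh-ACTL6A. Here both sh-ACTL6A arrays lay below both scramble arrays, with a difference of -0.47 ± 0.24 (interval -1.01 to 0.08). Probe set 1567015_at, at 6.32 and 6.79 against 5.95 and 7.03, overlapped and differed by -0.07 ± 0.42. The 3 NFE2L2 probe sets thus ranged from -0.47 to -0.04, and the limma adjusted p ran from 0.984 to 0.998 over them. Another probe set, which also carries the symbol CSNK2A1, was left out.

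KEAP1, the adaptor that presents NRF2 for degradation, read 10.73 and 11.03 on scramble and 10.83 and 11.07 on sh-ACTL6A. The groups overlapped, with a difference of 0.07 ± 0.17 (interval -0.32 to 0.45). Without scramble replicate 1 or without sh-ACTL6A replicate 2 the sign turned, to -0.08 and -0.05.

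MAFG, a small MAF protein that binds DNA together with NRF2, has a bright and a dim probe set. The bright one, 204970_s_at, read 10.26 and 10.72 on scramble and 10.16 and 10.28 on sh-ACTL6A, a difference of -0.27 ± 0.19 (interval -0.71 to 0.17). It was -0.50 without scramble replicate 1 and -0.04 without scramble replicate 2. The dim one, 224466_s_at, read 6.51 and 8.01 on scramble and 6.87 and 7.60 on sh-ACTL6A, a difference of -0.02 ± 0.49. The groups overlapped at both, and at both the scramble arrays differed from each other by more than the group means did. The median difference over the 6 regulator probe sets was -0.05. At 1 of them, the NFE2L2 probe set 1567013_at, both sh-ACTL6A arrays lay below both scramble arrays, where 15.1% of all tested probe sets were so.

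NQO1, the quinone reductase that is the usual readout of NRF2 activity, was slightly lower on sh-ACTL6A at all 3 of its probe sets. Probe set 210519_s_at read 13.08 and 13.10 on scramble and 12.97 and 12.81 on sh-ACTL6A. Probe set 201468_s_at read 12.62 and 12.56 against 12.52 and 12.19. Probe set 201467_s_at read 11.57 and 11.63 against 11.43 and 11.32. In each case both sh-ACTL6A arrays lay below both scramble arrays. The differences were -0.21 ± 0.10, -0.24 ± 0.14 and -0.23 ± 0.13 (SE), or -13.3%, -15.0% and -14.7%. Each 95% confidence interval reached past 0, the upper ends being 0.04, 0.08 and 0.06, and the limma adjusted p was 0.984 at all 3. Leaving out each array in turn gave -0.29 to -0.12, -0.40 to -0.07 and -0.29 to -0.17, and the smallest difference of 201468_s_at was that without sh-ACTL6A replicate 2. The 3 probe sets read the same RNA of the same arrays, so they are not 3 independent measurements.

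HMOX1, the inducible haem oxygenase, went the other way on 1 array. It read 11.13 and 11.31 on scramble and 11.70 and 11.18 on sh-ACTL6A. The first sh-ACTL6A array lay 0.49 above the scramble mean and the second 0.04 below it, so the groups overlapped. The difference of 0.23 ± 0.19 (interval -0.22 to 0.67) became -0.04 without sh-ACTL6A replicate 1.

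The aldo-keto reductases reduce carbonyls and steroids with NADPH, and 5 of their 7 probe sets lay below the threshold. AKR1B10 read 4.72 and 4.59 on scramble and 4.44 and 5.46 on sh-ACTL6A, all below the threshold. AKR1C3 read 4.18 and 4.53 against 4.45 and 4.42, also below it. Fitted over all probe sets with no threshold, their differences were 0.30 ± 0.65 and 0.08 ± 0.66, and both pairs of groups overlapped. The 95% confidence intervals, -1.24 to 1.85 and -1.5 to 1.65, left room for large differences either way, which could not be detected at this signal.

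AKR1C1 had 5 probe sets, of which 2 reached the threshold, and both of these carry the suffix _x_at, which Affymetrix gives to probe sets that may also bind other transcripts. AKR1C1, AKR1C2 and AKR1C3 are close paralogs, so the signal cannot be assigned to AKR1C1 alone. Probe set 204151_x_at read 7.25 and 6.90 on scramble and 6.67 and 6.15 on sh-ACTL6A. Both sh-ACTL6A arrays lay below both scramble arrays, with a difference of -0.66 ± 0.32 (interval -1.40 to 0.07), or -36.9%, at a limma adjusted p of 0.984. Probe set 216594_x_at read 6.46 and 6.29 against 6.15 and 6.42 and differed by -0.09 ± 0.32, with overlapping groups. The 2 AKR1C1 probe sets therefore differ in the size of their difference, and the difference between them was not tested.

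The other 3 AKR1C1 probe sets lay below the threshold, and their arrays scattered widely. Probe set 1555856_s_at read 4.64 and 4.48 on scramble and 4.84 and 3.67 on sh-ACTL6A. Probe set 217626_at read 5.53 and 2.32 against 4.61 and 2.60, and 1555855_at read 3.07 and 1.65 against 1.67 and 2.82. The groups overlapped at all 3. A probe set that also carries the symbol AKR1C2 was left out.

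UGDH was the only member whose confidence interval lay wholly below 0. UGDH oxidises UDP-glucose to UDP-glucuronate, the sugar donor for glucuronidation of drugs and bile pigments and a building block of proteoglycans. It read 11.77 and 11.56 on scramble and 11.01 and 11.31 on sh-ACTL6A. Both sh-ACTL6A arrays lay below both scramble arrays. The difference was -0.51 ± 0.15 (SE, n = 2 per group, 95% confidence interval -0.87 to -0.15), or -29.6%, and limma gave an adjusted p of 0.971. UGDH was the only 1 of the 14 tested member probe sets with an unadjusted limma p under 0.05, where 1244 of the 27307 tested probe sets had one. Its interval apart from 0 restates the same test. Leaving out each array in turn gave -0.66 to -0.36. Among the 3868 tested probe sets with a mean log2 signal from 11 to 13, the absolute difference had a median of 0.103 and a 90th percentile of 0.295. UGDH lay outside the latter, but it was chosen with this contrast known, so its place is only a description.

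OSGIN1, an oxidative stress-induced growth inhibitor, read 6.15 and 6.28 on scramble and 5.16 and 5.58 on sh-ACTL6A. Both sh-ACTL6A arrays were lower and below the threshold of 5.63, so OSGIN1 was tested because of its scramble signal and the size of its difference is uncertain. The difference was -0.84 ± 0.38 (interval -1.73 to 0.05), or -44.2%, and limma gave an adjusted p of 0.984. Leaving out each array in turn gave -1.05 to -0.63. Among the 7009 tested probe sets with a mean from 5.63 to 7, the absolute difference had a median of 0.265 and a 90th percentile of 0.714. OSGIN1 lay outside the latter, but it was chosen with this contrast known and tested through its scramble signal, so nothing is read from this. NFE2L2 1567013_at (-0.47) also lay outside the 90th percentile of probe sets with a mean from 7 to 9, 0.443. AKR1C1 204151_x_at (-0.66) lay within 0.714.

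**Figure D2:**
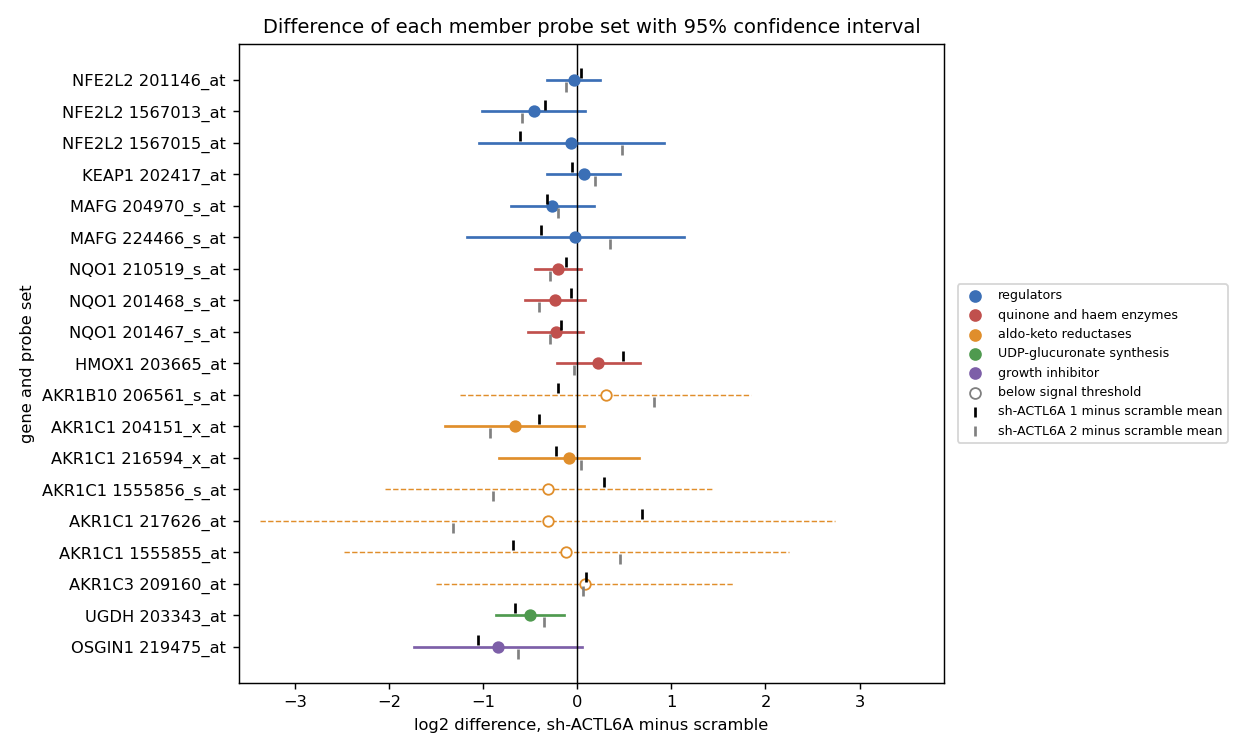
Difference in log2 signal, sh-ACTL6A minus scramble (horizontal axis), for each member probe set (vertical axis), with the limma 95% confidence interval as a line. Upright ticks give the sh-ACTL6A arrays singly, relative to the mean of scramble, and open circles with dashed lines mark the 5 probe sets below the signal threshold, from the fit over all probe sets. Only the interval of UGDH lies wholly on one side of 0.

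Put together, 12 of the 14 tested member probe sets had a difference below 0 and 2, for KEAP1 and HMOX1, above it. Their median was -0.22, against 0.01 over all tested probe sets, where 14288 lay above 0 and 13019 below. Both sh-ACTL6A arrays were below both scramble arrays at 7 of the 14, where 15.1% of all tested probe sets were so, and above at 0 of 14, where 18.3% were so. The other 7 overlapped. None of the 14 was called, and the adjusted p ran from 0.971 to 0.999. The choice of members drew on this same contrast, and OSGIN1 is among them only through its scramble signal, so nothing is read from these counts. Over all 19 probe sets, 15 were below 0 and 4 above, with a median of -0.21. Among the targets, 6 of 8 tested probe sets had both sh-ACTL6A arrays lower, and these belonged to NQO1, AKR1C1, UGDH and OSGIN1 of the 5 target genes tested. HMOX1 was the fifth.

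The regulators separated by replicate number at more probe sets than by group. At 4 of the 6 regulator probe sets (KEAP1, both of MAFG, and NFE2L2 1567015_at) the arrays numbered 2 lay above both arrays numbered 1, in scramble and in sh-ACTL6A. At NFE2L2 201146_at they lay below. Over all tested probe sets these shares were 20.7% and 16.9%. None of the 8 tested target probe sets separated the arrays by number. At the 6 that separated by group, separation by number was impossible, so regulators and targets cannot be contrasted in this way. Among the tested member probe sets the largest shift by number was at MAFG 224466_s_at, where replicate 2 exceeded replicate 1 by 1.12, followed by NFE2L2 1567015_at with 0.78.

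The array controls also moved with the number. The gap between the 3′ and 5′ probe sets of ACTB, which widens as RNA degrades, was 1.63 and 0.78 on scramble and 1.21 and 0.78 on sh-ACTL6A. That of GAPDH was 0.29 and 0.10 against 0.22 and 0.07. Both gaps were wider on the arrays numbered 1. Among the spiked controls, LysX and ThrX were higher on the arrays numbered 2, and BioB and BioDn slightly lower. LysX read 6.42 and 7.01 on scramble and 6.88 and 6.96 on sh-ACTL6A, and ThrX 6.59 and 7.16 against 6.71 and 7.33. DapX, PheX and CreX instead separated the groups. DapX read 9.95 and 10.24 on scramble and 10.37 and 10.51 on sh-ACTL6A, and PheX 7.07 and 7.15 against 7.36 and 7.41, both higher on sh-ACTL6A. CreX read 14.55 and 14.56 against 14.51 and 14.47, lower on sh-ACTL6A. The part of RNA quality and of labelling in the member differences was not tested.

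**Figure D3:**
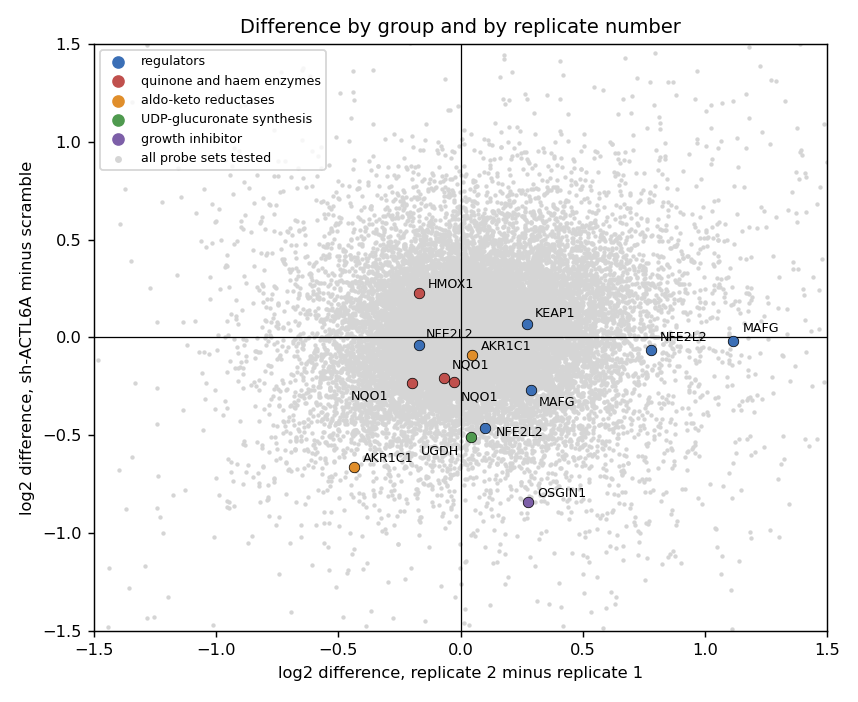
Each of the 27307 tested probe sets (grey) by its log2 difference between replicate numbers, replicate 2 minus replicate 1 (horizontal axis), and between groups, sh-ACTL6A minus scramble (vertical axis), with the 14 tested member probe sets in colour. Among the members, MAFG 224466_s_at (1.12) and NFE2L2 1567015_at (0.78) lie farthest along the horizontal axis. The other regulator probe sets lie between -0.17 and 0.29 on it, and AKR1C1 204151_x_at, of a target, at -0.44. UGDH (-0.51), NFE2L2 1567013_at (-0.47), AKR1C1 204151_x_at (-0.66) and OSGIN1 (-0.84) lie low on the vertical axis. The axes end at 1.5, and 104 grey points fall outside them.

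The rest of the NRF2 pathway was read from lists of other genes, 1 probe set a gene, also written with earlier results known. Of 58 listed genes, 53 had a probe set with a single symbol, and the others were not analysed here. Of the 53, 48 reached the threshold and none was called. Differences lay above 0 for 26 and below for 22, with a median of 0.03. Both sh-ACTL6A arrays were lower for 12 of the 48, where 15.1% of all tested probe sets were so, and higher for 5, where 18.3% were so. Of the 48, ABCC3 alone had an unadjusted limma p under 0.05, where 1244 of the 27307 tested probe sets had one.

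Of the 15 tested genes of NRF2 control, 10 lay above 0 and 5 below, with a median of 0.09. BACH1, a repressor that competes with NRF2 for antioxidant response elements and is best known for silencing HMOX1, read 10.13 and 9.88 on scramble and 9.65 and 9.65 on sh-ACTL6A. Both sh-ACTL6A arrays lay below, a difference of -0.36 ± 0.17 (limma adjusted p = 0.984). MAFF, another small MAF protein, differed by -0.24 ± 0.13, also without overlap. BACH2, of the same list, went the other way from BACH1. It read 7.75 and 7.54 on scramble and 8.27 and 7.86 on sh-ACTL6A, a difference of 0.42 ± 0.24.

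Of the 10 tested glutathione and thioredoxin genes, 2 lay above 0 and 8 below, with a median of -0.07. GCLC and GCLM, the subunits of the rate-limiting enzyme of glutathione synthesis, differed by -0.05 ± 0.13 and 0.06 ± 0.14, and their groups overlapped. Without sh-ACTL6A replicate 2 both signs turned, to 0.10 and -0.10. SRXN1, which repairs overoxidised peroxiredoxins, differed by -0.33 ± 0.16, and TXNRD1, thioredoxin reductase, by -0.16 ± 0.09, both with the sh-ACTL6A arrays lower. SLC7A11, the cystine importer, read 13.09 and 13.02 on scramble and 13.09 and 12.32 on sh-ACTL6A. Its lower mean rested on 1 of the sh-ACTL6A arrays, with a difference of -0.35 ± 0.22 over all arrays and -0.74 (limma adjusted p = 0.0167) without sh-ACTL6A replicate 1, and 0.03 without sh-ACTL6A replicate 2.

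The smaller lists were balanced about 0. Of the NADPH genes 2 of 4 lay above 0, with a median of -0.01. PGD, of the pentose phosphate pathway, differed by 0.20 ± 0.23 (-0.12 without scramble replicate 1), and TALDO1, transaldolase, by -0.19 ± 0.12. Of the haem and iron genes 3 of 5 lay above 0, with a median of 0.04. BLVRA, the biliverdin reductase that acts after HMOX1, differed by -0.21 ± 0.12 at a probe set of the _x_at kind, and FECH, which inserts iron into haem, by 0.21 ± 0.16.

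Of the carbonyl, quinone and xenobiotic genes 7 of 11 lay above 0, with a median of 0.08. CBR3, a carbonyl reductase, was higher on both sh-ACTL6A arrays, at 10.38 and 10.81 against 10.11 and 10.34, a difference of 0.37 ± 0.19. PIR, an iron-binding protein and NRF2 target, differed by 0.245 ± 0.17, also without overlap. None of these lists held a called gene.

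ABCC3, a pump for glucuronide and glutathione conjugates, read 6.79 and 6.67 on scramble and 5.52 and 5.08 on sh-ACTL6A. Both sh-ACTL6A arrays lay below the threshold of 5.63, so, as for OSGIN1, it was tested because of its scramble signal and the size of its difference is uncertain. The difference was -1.43 ± 0.36 (95% confidence interval -2.27 to -0.60, limma adjusted p = 0.829). ABCC4, another pump of the family, differed by 0.07 ± 0.16. The 3 tested efflux genes had a median of 0.01. The remaining listed efflux gene, ABCC2, had a mean below the threshold and was not tested. It went the other way from ABCC3, at 4.70 and 3.83 on scramble and 6.22 and 5.54 on sh-ACTL6A. Fitted over all probe sets, its difference was 1.61 ± 0.61 (95% confidence interval 0.14 to 3.08, limma adjusted p = 0.960), and its size is uncertain too.

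**Figure D4:**
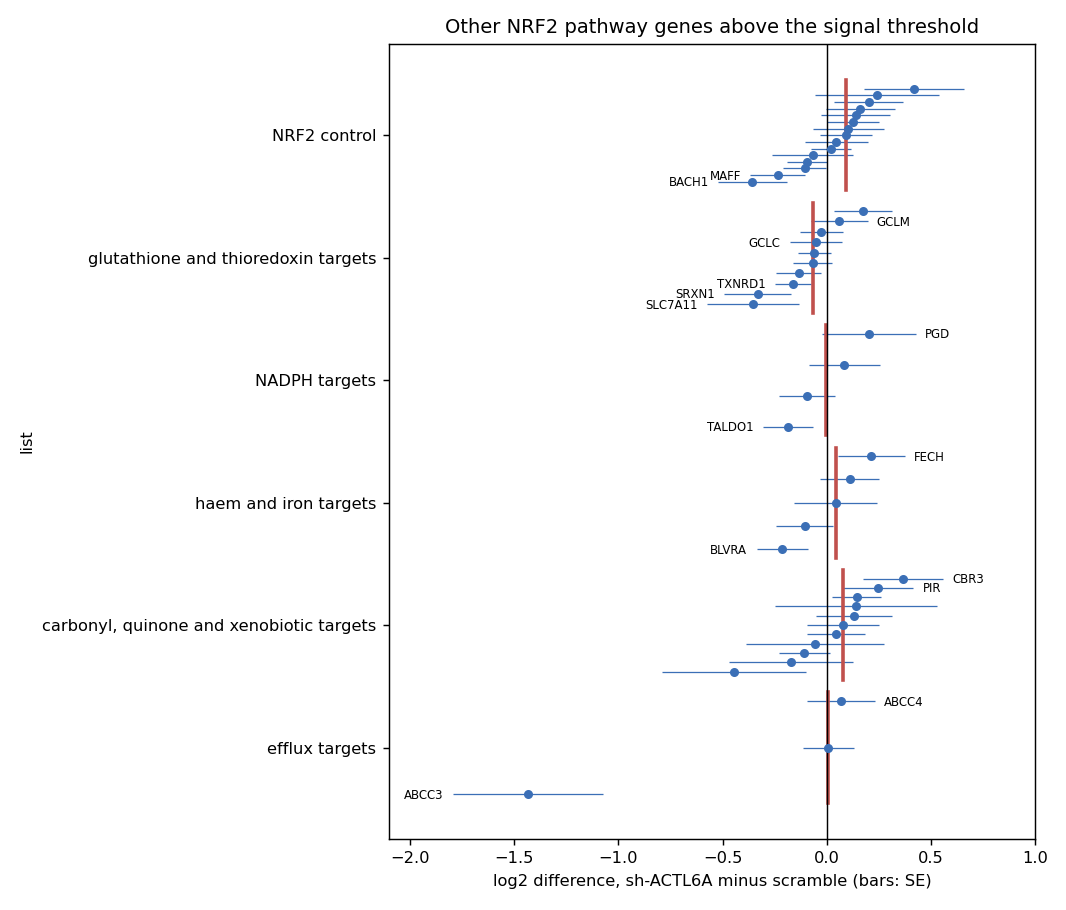
Difference in log2 signal, sh-ACTL6A minus scramble (horizontal axis, bars are SE), of the 48 tested NRF2 pathway genes that are not members, by list (vertical axis), with each list's median as a red bar. List medians lie between -0.07 and 0.09, and ABCC3 stands far to the left at -1.43.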

How the data were processed

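Total RNA from SNU638 cells was labelled with biotin and hybridised to 4 single-colour Affymetrix arrays. The authors deposited log2 signals, which the submitters' processing notes credit to MAS5, in a version not given in the sources used here. On each array the linear signal, trimmed by 2% at each end, averaged 500.0, so the arrays were scaled to a common level. The values were used as deposited. Dim MAS5 signals scatter more between arrays than bright ones, and 2 arrays a group limit the precision.

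Genes were named from the platform's probe set table. Of 54613 non-control probe sets, 41091 carried 1 symbol, 1801 several and 11721 none. Groups came from the sample labels. Differences (sh-ACTL6A minus scramble) came from limma 3.58.1 under R 4.3.3, by lmFit and then a 2-sided eBayes test with an intensity trend, over the 27307 probe sets whose mean log2 signal reached the 50th percentile, 5.63, with Benjamini-Hochberg adjustment and a threshold of 0.05. Member probe sets below it take their SE from a fit over all probe sets. The script was tested on simulated data.

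The members, gene lists and tests were chosen with earlier results of these data known. Named genes were ACTL6A, all members, the 2 genes with the smallest unadjusted p in each pathway list, and GCLC, GCLM, SLC7A11, TXNRD1 and BACH1. ABCC2 was named in addition, as the efflux gene that was not tested, and BACH2, as the NRF2 control gene with the largest difference above 0. Other settings were median centring, quantile normalisation, a stricter filter (75th percentile) or none, an offset of 16, no trend, the replicate block, leaving out 1 array, the methods' t-test, 1 probe set or the mean of all probe sets a gene, and no _x_at probe sets.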

Additional observations from a re-analysis of the deposited data

How the results depend on the processing

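No member probe set was called under any setting. With all arrays, 1 sign change occurred in 92 recomputed member values (MAFG 224466_s_at, median centring), and the lowest adjusted p was 0.481. With 1 array left out, 10 of 56 changed sign, over 6 probe sets of NFE2L2, KEAP1, MAFG, HMOX1 and AKR1C1, while NQO1, UGDH and OSGIN1 kept theirs, and the lowest adjusted p was 0.0854. A lone array left in a group is assumed to vary like the other group.

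The members' median ranged from -0.28 to -0.18 with 1 array left out, and 10 to 12 of 14 were below 0. This count, added after seeing the data, was 6 of 8 both with the stricter filter and with 1 probe set a gene, which test fewer probe sets. At the 75th percentile 8 of 19 member probe sets reached the threshold. The pathway median was 0.0627 with median centring, 0.0428 with no filter or the stricter filter, 0.0172 after quantile normalisation and -0.0163 to 0.02 with 1 array left out, and 0 to 1 pathway genes were then called (SLC7A11, without sh-ACTL6A replicate 1).

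Over all probe sets, 2 were called with median centring, 1 with 1 probe set a gene and 0 to 191 with 1 array left out, 169 without sh-ACTL6A replicate 1 and 191 without replicate 2. ACTL6A passed the threshold with median centring (-1.60, adjusted p = 0.0289), with 1 probe set a gene (-1.63, 0.0408) and without either sh-ACTL6A array, and ranged from -1.71 to -1.55 with 1 array left out (adjusted p 0.0016 to 0.677). The labels do not say that replicate numbers mark a shared culture or day, and same-numbered arrays deviated together weakly (r = 0.10). With the replicate block 6 probe sets were called, 3 higher and 3 lower, none a member, and ACTL6A was -1.63 (adjusted p = 0.0026). The causes were not tested.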
